A study of Mus musculus with 6 samples.

Results

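The genes described here encode 10 proteins of the basement membrane: the laminin alpha chains Lama2, Lama4 and Lama5, the beta chains Lamb1 and Lamb2, the gamma chain Lamc1, the nidogens Nid1 and Nid2, perlecan (Hspg2) and agrin (Agrn). They were picked by gene symbol, and all 10 were found among the 17666 genes of the deposited table. The table comes from RNA sequencing of the auditory nerve of C57 mice aged 1.5 to 2.5 months, and it compares 3 wildtype mice with 3 mice that carry a knockout of the gene of complement factor B. Each sample pooled the auditory nerves dissected out of the 2 cochleas of 1 mouse. The sources used here do not give the allele of the knockout, the sex of the mice or the substrain. The labels describe no treatment. The comparison asked how the young adult nerve differs without factor B, an enzyme of the complement system.

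A basement membrane is a thin sheet of matrix under epithelia, around muscle fibres, Schwann cells and blood vessels. Laminins are trimers of an alpha, a beta and a gamma chain that polymerise on the cell surface through integrins and dystroglycan, nidogens and perlecan join the laminin sheet to a second network of type IV collagen, and agrin is a heparan sulfate proteoglycan that binds laminin. In peripheral nerve each Schwann cell is wrapped in such a sheet, laminin with the alpha 2 chain is needed for the sorting and myelination of axons, and alpha 4 and alpha 5 chains are also found in the sheets of blood vessels.

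No source used here names the unit of the values; they are read from the values themselves as gene counts scaled per sample and rounded, called normalized counts below, and the number of reads behind them is unknown. They summed to between 38675077 and 41496282 per sample. Markers of the labelled tissue were present in every library: the sum over 10 Schwann cell genes lay between 455357 and 804965, and that over 10 spiral ganglion neuron genes between 315203 and 535017. Cfb, the targeted gene, had 55, 39 and 116 normalized counts in the wildtype-labelled libraries and 336, 351 and 376 in the knockout-labelled libraries. This goes against the labels, so every direction below is between libraries as labelled. Wildtype replicate 3 stood apart, with the highest sums of bone, red cell and marrow, and melanocyte genes. In bulk tissue, fewer cells of a type and less RNA per cell cannot be told apart.

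No basement membrane gene passed the test between the labels: limma at an adjusted p of 0.05 called 0 of the 10, against 0.158% of all genes tested, 0.102% higher and 0.0566% lower in the knockout. At an unadjusted p under 0.05 limma listed 6 of 10, all higher, against 20% of all genes in either direction and 10.8% higher. This count was 5, 3 and 7 of 10 without wildtype replicates 1, 2 and 3, and 3 without knockout replicate 1, 2 or 3. For the whole table of 17666 genes, in either direction, it was 3529 with every library kept. It became 4550, 2464 and 5167 there without wildtype replicates 1, 2 and 3. Without knockout replicates 1, 2 and 3 it became 2222, 1797 and 1891. In the authors' deposited table Hspg2, Agrn and Lama4, 3 of the 10, were called higher in the knockout and 0 lower, against 3.66% and 2.87% of all genes, or 6.53% in either direction. The mean was higher in the libraries labelled knockout for 9 of the 10, with Nid1 as the exception. By limma the log2 fold change was above 0 for 50.7% of all genes. It was above 0 for 68.3% of genes with transcripts of 4 to 8 kb and 89.1% of those over 8 kb, the lengths of the members. For 5 of the 10 the values of the labels did not overlap, all higher in the knockout, against 13.6% of all genes higher and 14.9% lower. The median log2 fold change of the 10 was 0.53, beside 0.0060 over all genes, and it was 0.32 without wildtype replicate 2. The wildtype-labelled libraries varied more among themselves than the others did for all 10 genes: the highest value was 1.27 to 5.86 times the lowest, against 1.03 to 1.27 times among the libraries labelled knockout. Wildtype replicate 2 was the lowest of the 6 libraries for 8 of the 10. Shares over all genes are not given for this or for the wider wildtype spread.

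**Figure D1:**
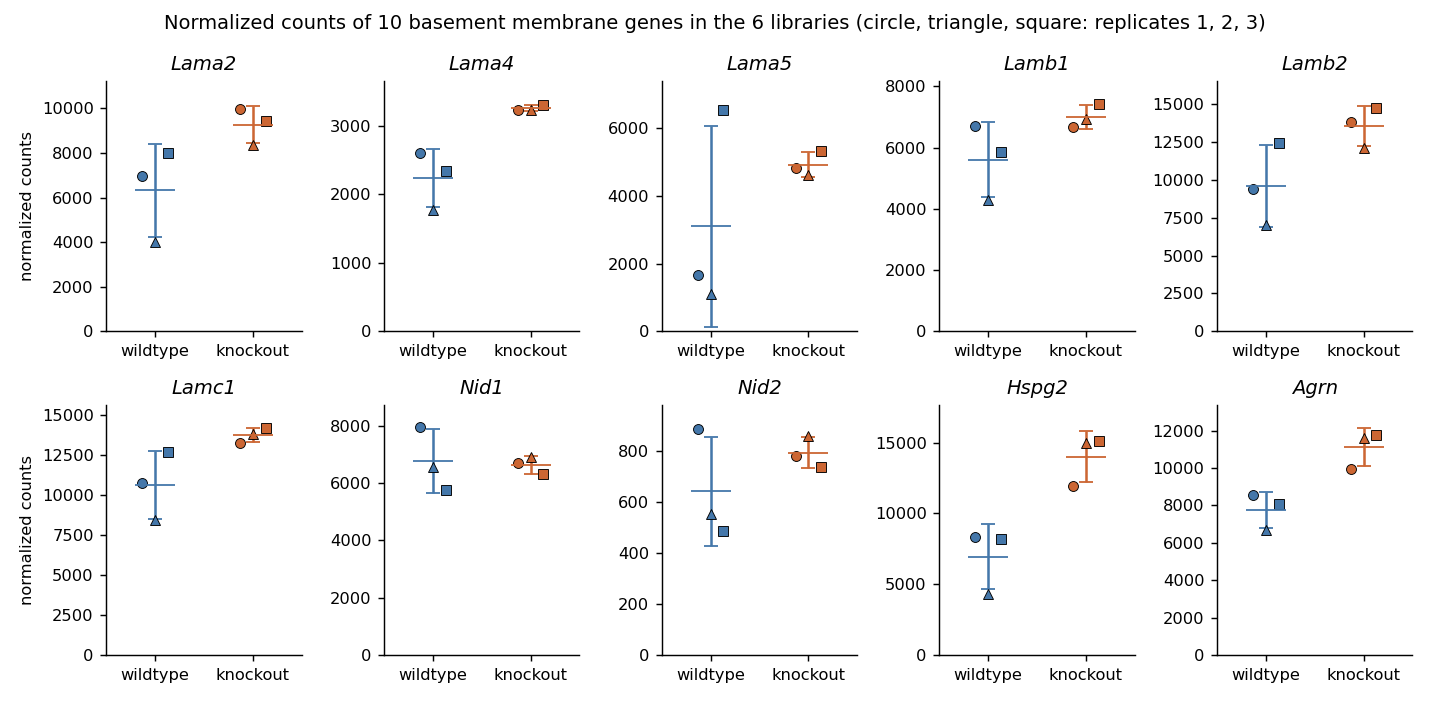
Normalized counts of each gene (vertical axes, from 0) in the 3 wildtype-labelled libraries (blue) and the 3 labelled knockout (orange), with bars for the mean ± SD and a symbol for each replicate number. Wildtype replicate 2 (blue triangle) is lowest for 8 of the 10 genes, and the labels do not overlap for Lama2, Lama4, Lamc1, Hspg2 and Agrn.

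Levels of different genes were compared per kb of the longest annotated transcript. Lamb2 had the highest level in both groups, with 1707 ± 486 normalized counts per kb in the wildtype-labelled libraries and 2413 ± 238 in the knockout-labelled libraries (SD, n = 3 each). Lamc1, the gamma 1 chain shared by most laminins, came next with 1396 ± 280 and 1803 ± 59.0. Nid2 had the lowest level, with 131.7 ± 43.8 and 162.6 ± 12.6, and Nid1 had 1112 ± 184 and 1092 ± 51.3. Among the wildtype-labelled libraries, no gene was separated from its neighbour in the order of levels, since each neighbouring pair overlapped. In the knockout-labelled libraries the order was Lamb2, Lamc1, Agrn, Lamb1, Nid1, Hspg2, Lama2, Lama4, Lama5 and Nid2. There the neighbours Agrn and Lamb1, Nid1 and Hspg2, and Hspg2 and Lama2 overlapped, and the other 6 neighbouring pairs did not.

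**Figure D2:**
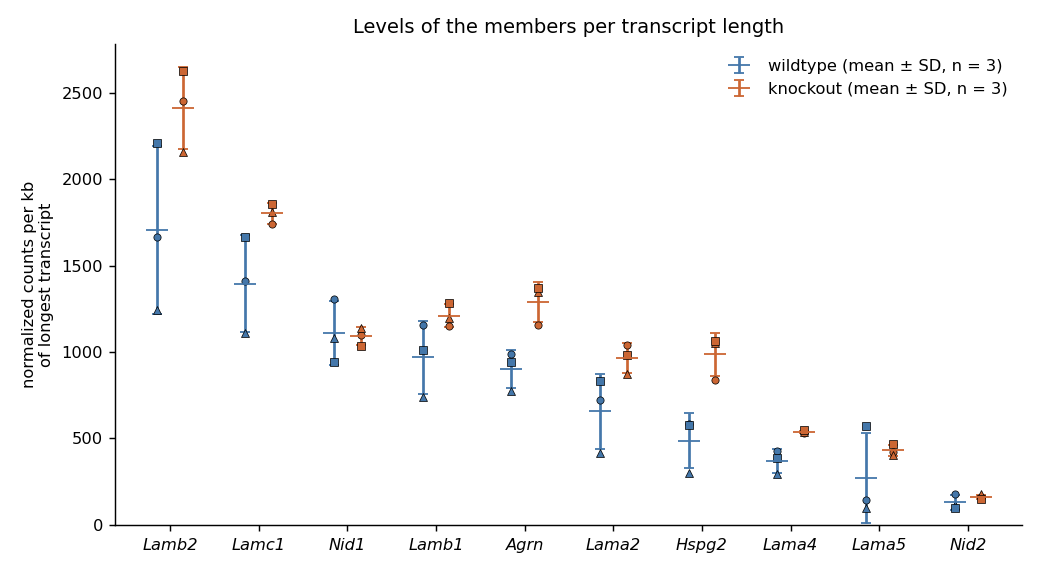
Normalized counts per kb of the longest annotated transcript (vertical axis, from 0) for the 10 genes, ordered by the mean of the wildtype-labelled libraries (blue) beside the libraries labelled knockout (orange); bars are the mean ± SD of 3 libraries and symbols are the libraries. Lamb2 and Lamc1 are at the top and Nid2 at the bottom in both groups.

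Summed per kb, the 3 alpha chains reached 1300 ± 496 in the wildtype-labelled libraries and 1935 ± 108 in the others (SD, n = 3 each), and the 2 beta chains 2677 ± 632 and 3623 ± 277. Lama2, the alpha chain of Schwann cell and muscle laminin, made up 51.3% ± 4.7 of the alpha chain level in the wildtype-labelled libraries and 49.8% ± 2.0 in the others. The share of Lama5 was 11.1% and 12.2% in wildtype replicates 1 and 2, 31.9% in wildtype replicate 3, and between 21.2% and 23.4% in the libraries labelled knockout. Lama2 had the highest share in all 6 libraries, and Lama5 stood above Lama4 in wildtype replicate 3 and below it in the other 5.

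The proteoglycans perlecan and agrin both lie on chromosome 4 (GRCm38), at 137468769 to 137570630 on the plus strand and 156165290 to 156197488 on the minus strand. RefSeq promoter windows (GRCm38.p6) were found for 7 of the 10 genes and not for Lama4, Lamc1 and Nid2. Bases 250 to 61 before the RefSeq start are shown for perlecan and agrin, the members with the lowest false discovery rates in the authors' deposited table, and for Nid1, the gene with the difference nearest to 0. The windows are chr4:137468553-137468742 on the plus strand, chr4:156197549-156197738 on the minus strand and chr13:13437352-13437541 on the plus strand, written 5′ to 3′. The RefSeq start of Hspg2 and that of Nid1 lie downstream of the GENCODE gene starts given here, so these windows end closer to the latter. Capitals mark matches to 3 motifs searched on both strands: the GC box, spelled GGGCGG and on the other strand CCGCCC, the CCAAT box, on the other strand ATTGG, and the TATA box, spelled TATAAA and on the other strand TTTATA. The kinds of motif did not overlap in these windows, while a pair of GC boxes in the Agrn window shared a base.
Hspg2: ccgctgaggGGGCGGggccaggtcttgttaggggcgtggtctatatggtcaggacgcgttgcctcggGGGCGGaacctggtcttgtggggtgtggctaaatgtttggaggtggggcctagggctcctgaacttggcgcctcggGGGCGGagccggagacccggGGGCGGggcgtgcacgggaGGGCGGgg
Agrn: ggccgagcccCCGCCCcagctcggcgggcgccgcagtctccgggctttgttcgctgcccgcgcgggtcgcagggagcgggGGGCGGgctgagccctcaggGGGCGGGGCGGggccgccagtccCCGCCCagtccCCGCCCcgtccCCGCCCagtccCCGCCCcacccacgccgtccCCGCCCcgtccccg
Nid1: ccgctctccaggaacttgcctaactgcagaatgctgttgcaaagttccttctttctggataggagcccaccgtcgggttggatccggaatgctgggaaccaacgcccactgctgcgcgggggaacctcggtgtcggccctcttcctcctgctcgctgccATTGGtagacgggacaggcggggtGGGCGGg
The window of Hspg2 held 5 GC boxes, that of Agrn 9, counting overlapping ones, and that of Nid1 1 GC box and 1 CCAAT box. GC boxes were in 5 of the 7 member windows and in 22.8% of 32851 windows of the same length, a CCAAT box in 2 of 7 and in 26.7%, and a TATA box in 0 of 7 and in 8.73%. The windows of Lama2 and Lamb2 held none of the 3 motifs. That of Lama2 (27617003 to 27617192, minus strand) lies inside the GENCODE gene, which starts at 27619758. That of Lamb2 (108479612 to 108479801, plus strand) runs past the GENCODE start at 108479736. So neither lies wholly before the GENCODE start of its gene. The windows of Lama2 and Lamb2 were 42.6% and 44.7% G or C, and the 5 windows with a GC box 62.6% to 84.2%. The median over all windows was 51.6%. Agrn had 2 promoter entries, of which the one furthest 5′ was used. These matches describe letters and not sites in use.

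Hspg2 had 8297, 4282 and 8204 normalized counts in the wildtype-labelled libraries and 11926, 14964 and 15093 in the knockout-labelled libraries. Every library labelled knockout lay above every library labelled wildtype, and wildtype replicate 2 was lowest. Their means of 6928 ± 2292 and 13994 ± 1792 (SD, n = 3 each) differed 2.02-fold, the highest ratio of means among the 10 genes. Limma fitted a log2 fold change of 1.07 (SE 0.27, adjusted p = 0.162). In the authors' deposited table its fold change was 2.02 with a false discovery rate of 0.0111.

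Agrn, known for gathering acetylcholine receptors at the neuromuscular junction, had 8529, 6694 and 8095 normalized counts in the wildtype-labelled libraries and 9939, 11601 and 11779 in the others. The groups did not overlap, and the fold of the means was 1.43. Limma fitted a log2 fold change of 0.52 (SE 0.14, adjusted p = 0.162). The authors' deposited table gave it a false discovery rate of 0.0222.

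Lama2 (chromosome 10, 26980036 to 27619758) had 6971, 3988 and 8022 normalized counts in the wildtype-labelled libraries and 9988, 8376 and 9455 in the knockout-labelled libraries. The highest wildtype library, replicate 3, lay just under the lowest of the others. The fold of the means was 1.47, and the log2 fold change of 0.61 (SE 0.26) had an adjusted p of 0.247 by limma. Without wildtype replicate 2 it was 0.31.

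Lama4 (chromosome 10, 38965515 to 39110188), the alpha chain of vessel and nerve sheets, had 2601, 1764 and 2345 normalized counts in the wildtype-labelled libraries and 3226, 3235 and 3307 in the knockout-labelled libraries. The libraries labelled knockout were within 1.03 times of one another and above all of the others. The log2 fold change was 0.56 (SE 0.15) with an adjusted p of 0.166 by limma, and the authors' deposited table gave a fold change of 1.46 with a false discovery rate of 0.0436.

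Lama5 (chromosome 2, 180176373 to 180225859), an alpha chain of many epithelial and vascular sheets, had 1647, 1113 and 6526 normalized counts in the wildtype-labelled libraries and 4825, 4606 and 5333 in the others. Wildtype replicate 3 was the highest of all 6 libraries and replicate 2 the lowest. Limma fitted a log2 fold change of 1.10 (SE 0.59, adjusted p = 0.337). Without wildtype replicate 3 it was 1.86 with an adjusted p of 0.0131 by limma, so that 1 of the 10 genes was called. Without wildtype replicate 2 it was 0.58. Other chains were also highest in wildtype replicate 3, among them a laminin beta chain and a type IV collagen chain, picked after their values were seen: Lamb3 had 723 there and 108 to 329 elsewhere, and Col4a3 2062 against 562 to 923. Sums of bone, red cell and marrow, and melanocyte markers were highest in the same library, at 316422, 35132 and 28271 normalized counts, against at most 140207, 11943 and 10801 in the other libraries; their part in the Lama5 level was not tested.

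Lamb1 (chromosome 12, 31265234 to 31329644), a beta chain of nerve laminin, had 6698, 4294 and 5843 normalized counts in the wildtype-labelled libraries and 6662, 6932 and 7416 in the others. Lamb2 (chromosome 9, 108479736 to 108490530), a beta chain of the neuromuscular and kidney sheets, had 9377, 6992 and 12452 against 13810, 12143 and 14789. In each gene 1 library labelled wildtype, replicate 1 for Lamb1 and replicate 3 for Lamb2, reached above the lowest of the others. The log2 fold changes were 0.34 (SE 0.17) and 0.53 (SE 0.22), with adjusted p of 0.309 and 0.235 by limma. Without wildtype replicate 2 they were 0.16 and 0.32.

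Lamc1 (chromosome 1, 153218922 to 153332786) had 10759, 8452 and 12709 normalized counts in the wildtype-labelled libraries and 13261, 13802 and 14153 in the others, with no overlap. The log2 fold change was 0.39 (SE 0.16), with an adjusted p of 0.249 by limma, and 0.23 without wildtype replicate 2.

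Nid1 (chromosome 13, 13437551 to 13512269), the main linker between laminin and type IV collagen, had 7977, 6582 and 5756 normalized counts in the wildtype-labelled libraries and 6701, 6932 and 6314 in the others. The groups overlapped, with wildtype libraries at both ends. The log2 fold change was -0.014 (SE 0.14, adjusted p = 0.966 by limma), and its sign turned without wildtype replicate 1 (0.11) and without knockout replicate 3 (0.022). Nid2 (chromosome 14, 19751265 to 19811787), the second nidogen, had 886, 554 and 487 against 782, 859 and 738. Here too wildtype libraries were both highest and lowest. Its log2 fold change was 0.35 (SE 0.23, adjusted p = 0.426 by limma), 0.61 without wildtype replicate 1 and 0.18 without wildtype replicate 3. Of the exonic bases of Nid2, 8.45% overlap Rtraf on the opposite strand, which had 729 to 1219 normalized counts, and no source used here says whether counting used strand, so the Nid2 value is uncertain.

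**Figure D3:**
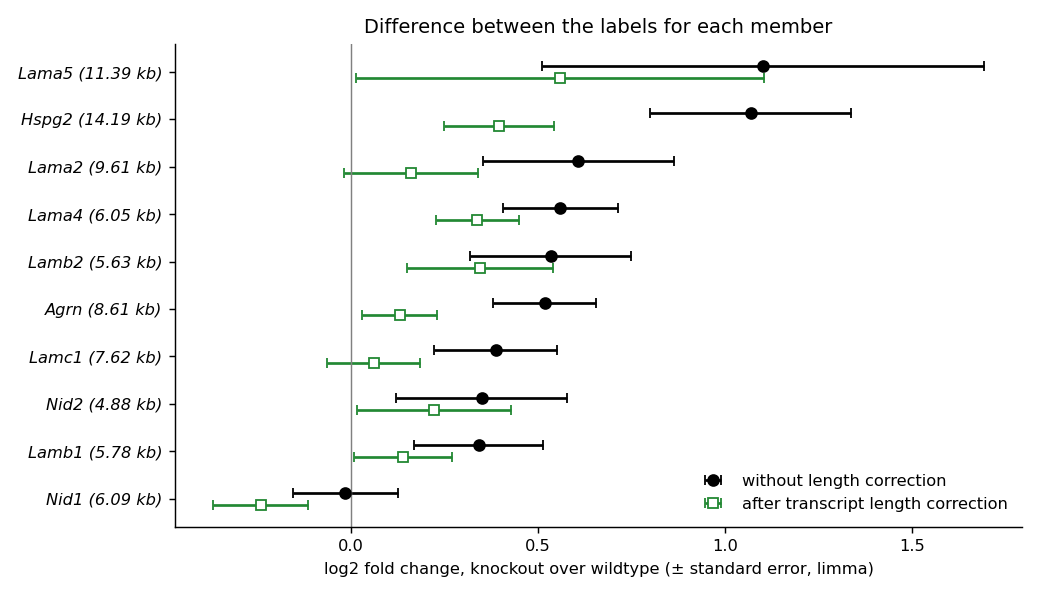
Log2 fold change of the libraries labelled knockout over those labelled wildtype (horizontal axis) for each gene with its transcript length, as fitted by limma (black) and after a correction for transcript length (green); bars are standard errors. All 10 values are lower after the correction: Hspg2 goes from 1.07 to 0.40 and Agrn from 0.52 to 0.13.

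The members have long transcripts, from 4.88 kb for Nid2 to 14.2 kb for Hspg2, and in these libraries the difference between the labels ran with length. Over all genes the median log2 fold change was -0.33 for 973 genes with transcripts of up to 1 kb, -0.19 for 1 to 2 kb, -0.03 for 2 to 4 kb, 0.15 for 5107 genes of 4 to 8 kb and 0.48 for 915 genes over 8 kb. The authors' deposited table called 0.514% of the shortest class and 21.6% of genes over 8 kb higher. Among genes over 8 kb, 49.7% had all libraries labelled knockout above all of the others. Within this class the median deviation from a gene's mean on the log2 scale was -0.03 in wildtype replicate 1, -0.52 in wildtype replicate 2, the library lowest for most members, and -0.12 in wildtype replicate 3. In the libraries labelled knockout it was between 0.22 and 0.26.

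Each member was then placed among genes of its own length class. Of the 4 members over 8 kb, the log2 fold change of Agrn (0.52) was above 85.7% of all genes and above 53.6% of that class. That of Lama2 (0.61) was above 88.8% and 60.8%, that of Hspg2 (1.07) above 96.1% and 87.4%, and that of Lama5 (1.10) above 96.3% and 88.2%. These 4 thus ranked lower within their class than among all genes, Agrn and Lama2 by the widest margin. Of the 6 members of 4 to 8 kb, Lama4 was above 87.2% of all genes and 86.4% of its class and Lamb2 above 86.4% and 85.1%, which hardly differ. Lamc1 was above 80% and 74.6%, Nid2 above 78.1% and 71.6% and Lamb1 above 77.7% and 70.8%, each lower within the class. Nid1 was above 47.7% of all genes and 30% of its class, so it lay further from the middle of its class. After a correction that removes the trend with length in each library, the median of the 10 was 0.19, beside -0.0037 over all genes, and 0 passed by limma. An unadjusted p under 0.05 was left for 2, Lama4 and Hspg2, against 15.3% of all genes. The corrected log2 fold change was 0.40 for Hspg2 (SE 0.15, adjusted p = 0.288), 0.34 for Lama4 (SE 0.11, adjusted p = 0.258), 0.34 for Lamb2, 0.56 for Lama5, 0.16 for Lama2, 0.13 for Agrn, 0.061 for Lamc1 and -0.24 for Nid1, all by limma. For Lamb1 and Nid2 it was 0.14 and 0.22. Because length-linked differences run with the label, their part and that of the genotype in the values of these genes cannot be told apart.

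**Figure D4:**
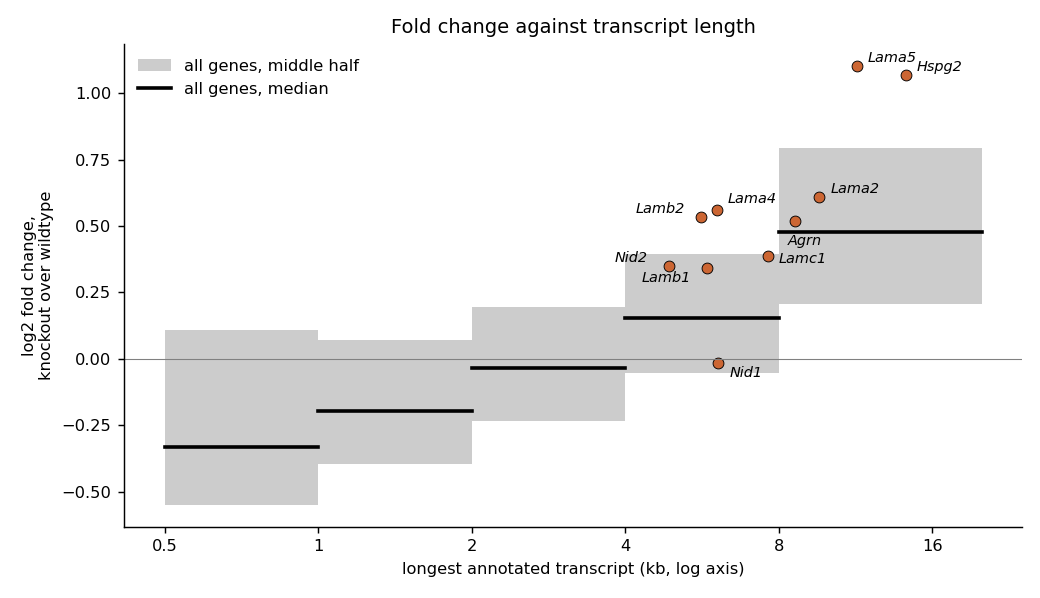
Log2 fold change (vertical axis) against the longest annotated transcript (horizontal log axis, kb). Black lines and grey boxes are the median and the middle 50% of all genes in 5 length classes, of which the outermost are open-ended, and orange points are the 10 genes. The class medians go from -0.33 to 0.48, and Agrn lies close to the median of genes over 8 kb.

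Ratios between members within a library do not depend on how that library was scaled. Of 6 ratios compared, 2 did not overlap between the labels. Agrn relative to Hspg2 was 1.03, 1.56 and 0.987 in the wildtype-labelled libraries and 0.833, 0.775 and 0.780 in the others, a difference of -0.55 in the mean log2 ratio and of -0.34 without wildtype replicate 2. These transcripts differ in length, at 8.61 kb and 14.2 kb, and the ratio is not corrected for the trend with length. Nid2 relative to Nid1 was 0.111, 0.084 and 0.085 against 0.117, 0.124 and 0.117, a difference of 0.37. Both had p = 0.1 in an exact two-sided permutation test, the smallest that 3 against 3 can give, and an adjusted p of 0.3 over the 6 ratios, so neither passed. The other 4 overlapped. Lama4 over Lama2 differed by -0.048 (exact permutation p = 0.9), Lamb1 over Lamb2 by -0.19, Lama5 over Lama2 by 0.49 and Lama5 over Lama4 by 0.54 (exact permutation p = 0.4 for each of these 3), with adjusted p of 0.9 for the first and 0.48 for the rest. Leaving out 1 wildtype library moved the last 3 widely: without replicate 1 they were -0.055, 0.16 and 0.19, without replicate 2 they were -0.16, 0.28 and 0.18, and without replicate 3 they were -0.36, 1.05 and 1.26.

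**Figure D5:**
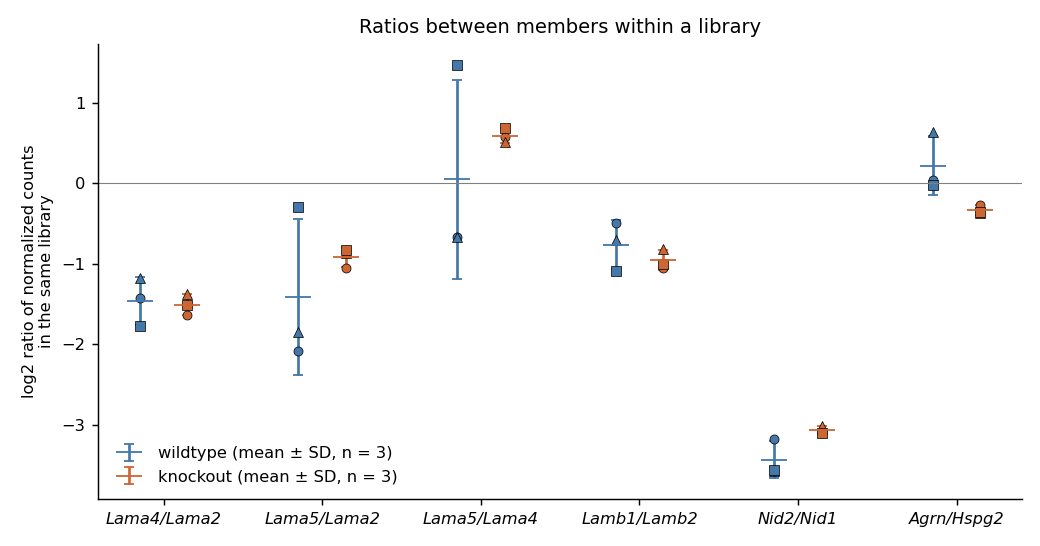
Log2 ratio of the normalized counts of 2 genes in the same library (vertical axis) for 6 pairs, in the wildtype-labelled libraries (blue) and knockout (orange); bars are the mean ± SD of 3 libraries and symbols are the libraries. Wildtype replicate 3 (blue square) lies far above the other wildtype libraries in the ratios with Lama5, and the Agrn to Hspg2 and Nid2 to Nid1 ratios do not overlap between the labels.

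The partners of these proteins gave 0 calls by limma over 109 measured genes in 8 lists, while 24 had an unadjusted p under 0.05, against 20% of all genes. That count was 36, 21 and 54 without wildtype replicates 1, 2 and 3, and 15, 13 and 11 without knockout replicates 1, 2 and 3. The count for the whole table of 17666 genes rose and fell in the same runs. From 3529 it went to 4550, 2464 and 5167 without wildtype replicates 1, 2 and 3. Without knockout replicates 1, 2 and 3 it went to 2222, 1797 and 1891. The other laminin chains had a value above 0 in 5 of 5, with a median log2 fold change of 0.59; the abundant ones were Lamc3 (0.60, SE 0.34) and Lama1 (0.59, SE 0.22). Of 8 collagen chains of the basement membrane, 7 had a value above 0 and the median was 0.33. Col4a1 and Col4a2, the common type IV chains, had 0.29 (SE 0.16) and 0.37 (SE 0.17). After the length correction the medians of these lists were 0.15 and 0.12. Wildtype replicate 2 was the lowest library for all 5 laminin chains and all 8 collagen chains.

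Among 16 other proteins of the sheet limma called 0, with 4 higher and 1 lower at an unadjusted p under 0.05. Of all genes, 20% passed the latter threshold in either direction and 10.8% were higher. Of the 16, 3 were higher and 1 lower by the authors' deposited table, against 3.66% and 2.87% of all genes. Pxdn, the peroxidase that cross-links type IV collagen, had a 1.55-fold higher level in the authors' deposited table. Egflam (pikachurin, a ligand of dystroglycan) was 1.52-fold and Fras1 1.92-fold higher there. By limma their log2 fold changes were 0.64, 0.60 and 0.97, and after the length correction 0.38, 0.48 and 0.23. The Fras1 transcript is 15.8 kb long, and the authors' deposited table called 21.6% of genes over 8 kb higher. Sparc, an abundant collagen-binding protein, had 46001, 56931 and 115631 normalized counts in the wildtype-labelled libraries and 32352, 40052 and 32803 in the others, without overlap, and it was 2.08-fold lower by the authors' deposited table. Its log2 fold change by limma was -0.94 (SE 0.34, adjusted p = 0.206). The sum of bone markers was 130596, 140207 and 316422 in the wildtype-labelled libraries and 102357 to 126069 in the others, also lower without overlap. Its part in the Sparc level was not tested. Fbln1, the other abundant gene of the list, had 0.44 (SE 0.21).

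Of 18 receptor genes, 0 were called by limma or in the authors' deposited table, while 5 were higher at an unadjusted p under 0.05, against 10.8% of all genes. Dag1, the dystroglycan gene, had 13747, 11019 and 11650 normalized counts in the wildtype-labelled libraries and 13605, 14716 and 13991 in the others, which overlap. Itgb1, the beta subunit of the main laminin integrins, had 11495, 12321 and 16223 against 11339, 9688 and 10682, all lower, with a log2 fold change of -0.32 (SE 0.16, adjusted p = 0.302 by limma). In the dystrophin and sarcoglycan list of 13 genes 0 were called by either. It had 3 higher at an unadjusted p under 0.05 by limma, against 10.8% of all genes. Its most abundant members were Prx (0.14, SE 0.21), the periaxin of myelinating Schwann cells, and Utrn (0.53, SE 0.20), the utrophin that links dystroglycan to actin, which had -0.063 after the length correction.

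Of 17 measured genes of dystroglycan glycosylation, 0 passed by limma, with 3 lower at an unadjusted p under 0.05. Of all genes, 20% passed the latter threshold in either direction. In the authors' deposited table Dpm2 (1.42-fold) and Tmem5 (1.32-fold), 2 of the 17, were called lower, against 2.87% of all genes. The median was -0.021, and the abundant B4gat1, an enzyme of the laminin-binding glycan, had 0.0061. For heparan sulfate synthesis, which builds the chains of perlecan and agrin, limma called 0 of 18. Extl3 (1.29-fold) and Hs6st2 (1.38-fold), 2 of the 18, were called higher in the authors' deposited table, against 3.66% of all genes. At an unadjusted p under 0.05 limma listed 2 as higher, against 10.8% of all genes. Extl2, the most abundant gene of that list, had -0.030, and Extl3 0.37 (SE 0.11, adjusted p = 0.172 by limma). Among 14 proteases and inhibitors limma called 0, with 2 higher and 1 lower at an unadjusted p under 0.05. The shares of all genes at that threshold were 20% in either direction and 10.8% higher. Mmp15 alone, 1 of the 14, was called higher (1.28-fold) by the authors' deposited table, against 3.66% of all genes. The inhibitors Timp3 and Timp2 had log2 fold changes of -0.44 and 0.021. Without wildtype replicate 3, limma called 4 of the 109 partner genes, all higher, among them Col18a1 (0.78), Frem2 (1.45) and Hmcn1 (0.94).

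Cell types that build these sheets were looked at beside the members. The sum of 10 endothelial genes was 14420 to 15896 in the wildtype-labelled libraries and 16565 to 19916 in the others, and that of 10 mural genes 22437 to 29062 and 25742 to 31277. The sum of 10 fibroblast genes was 79826 to 92425 and 74542 to 83704, and that of 10 Schwann cell genes 578350 to 804965 and 455357 to 542737. The endothelial sums were higher and the Schwann cell sums lower in the knockout-labelled libraries without overlap, and the mural and fibroblast sums overlapped. Of single genes in the whole table, 13.6% were higher and 14.9% lower without overlap. A sum is carried mostly by its most abundant genes, and none of the sums is corrected for the trend with length. Other tissue near the nerve differed too. The sum of 13 red cell and marrow genes was 11318 to 35132 against 2713 to 4555 and that of 10 bone genes 130596 to 316422 against 102357 to 126069, both lower without overlap. Sums over 10 organ of Corti and tectorial membrane genes were 8343 to 19121 and 18703 to 34598, with overlap, and their median log2 fold change was 1.45.

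Limma called 0 genes of these 7 marker lists, which hold 10 genes each, or 13 for red cell and marrow. At an unadjusted p under 0.05 it listed 5 endothelial, 3 mural, 1 fibroblast and 8 organ of Corti genes as higher. As lower it listed 3 Schwann cell, 1 mural, 1 fibroblast, 2 bone and 12 red cell and marrow genes. Of all genes, 20% passed this in either direction and 10.8% were higher. The authors' deposited table called 2 endothelial, 3 mural, 1 fibroblast and 5 organ of Corti genes higher, against 3.66% of all genes. It called 3 Schwann cell, 1 fibroblast, 2 bone and 11 red cell and marrow genes lower, against 2.87% of all genes. None of these lists had a marker at 0 in any library. The part of these cell types in the levels of the basement membrane genes was not tested.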

How the data were processed

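RNA from auditory nerves of 6 mice was purified with the miRNeasy kit and made into TruSeq libraries, per the labels' protocols. The submitters' processing notes list TopHat2, DESeq2 and Partek with the mouse build mm10, and give no version or order. The authors deposited 1 score per gene and sample, read here from the values as a scaled, rounded count, which no source used here states, and, per the file headers, a fold change and a false discovery rate of their own, which is missing for 2061 genes. Sequencing depth is unknown. There were 0 unused columns of sample values.

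Values were transformed as log2(value + 1), which understates the change of low genes. The filter of a mean of at least 1 removed 0 genes. A model with label alone was fitted over all genes by limma 3.58.1 (R 4.3.3), with a trend and Benjamini-Hochberg adjustment at 0.05, and was tested on simulated data. Transcript lengths came from GENCODE M21 by symbol, for 98.3% of genes, and the length correction subtracts a lowess curve with a span of 0.3 per library. Ratios were tested by exact permutation in SciPy 1.17.1. The labels do not say that samples with the same number were paired. The members and lists were chosen with earlier results of these data known. The text names all members and, per list, up to 4 called genes or else the 2 most abundant, beside genes called in the authors' deposited table or in groups of 5 or fewer, which were picked with their values in view. A few genes that these rules would name are not reported here.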

Additional observations from a re-analysis of the deposited data

How the results depend on the processing

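The 10 genes gave 0 calls by limma in every alternative run, except that 1 was called, Lama5, without wildtype replicate 3, both without and with the length correction (log2 fold change 1.86 and 1.27). Over the fits that leave out 1 library the calls ranged from 0 to 1 for the 10 genes, from 0 to 4 for the partner genes and from 0 to 419 over all genes, where limma called 28 with all 6 libraries. Without wildtype replicate 1, 2 and 3 limma called 87, 1 and 419 genes, and 0 when any 1 knockout-labelled library was left out, with 1797 to 2222 genes at an unadjusted p under 0.05. Without a trend it called 16 and with sample weights 111. After the length correction without wildtype replicate 3, chosen after the data were seen, limma called 500 genes, 5 of them partner genes. The deviations of same-numbered samples from their group means had correlations of -0.050, 0.056 and 0.11. Those of samples with different numbers ranged from -0.22 to 0.24. With 3 samples per group these values cannot decide whether the samples were paired, and the labels do not say. With the replicate block limma called 7 genes and 0 of the 10; with the length correction and the replicate block, added after the data were seen, it called 0 genes, with 2020 at an unadjusted p under 0.05. The replicate block cannot change the difference in a member ratio, since each replicate number occurs once under each label. The sign of Nid1 turned without wildtype replicate 1 (0.11) and without knockout replicate 3 (0.022), in a range from -0.13 to 0.11 over the fits that leave out 1 library without the length correction; it was -0.24 with that correction and -0.36 with it and without wildtype replicate 3. The sign of the Lama4 to Lama2 ratio turned without wildtype replicate 2 (0.092) and without knockout replicate 1 (0.014), in a range from -0.21 to 0.092 over the fits that leave out 1 library. Over the same fits the Lama5 to Lama2 difference ranged from 0.16 to 1.05, Lama5 to Lama4 from 0.18 to 1.26, Lamb1 to Lamb2 from -0.36 to -0.055, Nid2 to Nid1 from 0.30 to 0.50 and Agrn to Hspg2 from -0.67 to -0.34, with no change of sign. With 3 libraries of unequal spread in the wildtype group, the replicates limit the precision, and the depth is not known.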

Other observations

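Hpse, the heparanase that cuts the heparan sulfate chains of perlecan and other proteoglycans, had 273, 1105 and 14330 normalized counts in the wildtype-labelled libraries and 235, 315 and 932 in the knockout-labelled libraries. Wildtype replicate 3 thus had the highest value by far, and it was also the library with the highest melanocyte marker sum, 28271 against 8721 to 10801 elsewhere. The labels overlapped, and Hpse was chosen after its values were seen.

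Agrn lies next to genes with differences between the labels. Plekhn1 (chromosome 4, 156221456 to 156234857), 24 kb from Agrn, had 146, 132 and 136 normalized counts in the wildtype-labelled libraries and 363, 473 and 436 in the others (log2 fold change 1.61, adjusted p = 0.0297 by limma). Samd11 (chromosome 4, 156246966 to 156255657), 49.5 kb away, had 433, 329 and 224 against 26, 34 and 15 (-3.69, adjusted p = 0.0297 by limma). Within 1 Mb on each side of Agrn, a window chosen after seeing the data, 7 of 47 measured neighbours were called in the authors' deposited table, 4 higher and 3 lower, or 14.9% against 6.53% of all genes. Around Hspg2 on the same chromosome it called 2 of 26 (7.69%), both higher, and around Lamb2 7 of 67 (10.4%). Around each remaining member the share was at most 6.25%. Whether the share around Agrn differs from that of other windows was not tested.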
